A study of Rattus norvegicus with 3 samples.

Results

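Emx1, Emx2, Pax6, Lhx2, Nr2f1, Nr2f2, Sp8, Dmrt3 and Dmrta2 are transcription factors known for setting up the cortical field and the position of its areas. They were taken by symbol, as 9 of the 29772 genes measured in cells of the developing rat cerebral cortex. All 9 symbols were found. Their unique molecular identifiers (UMIs, which count captured RNA molecules) were followed over cell classes and over the 3 libraries of the study. Pairs of these genes were also compared within cells that held at least 1 UMI of Sox2, a transcription factor of neural progenitors.

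The study profiled dissociated cortical cells of wildtype rat embryos by droplet-based 3′ single-cell RNA sequencing, with papain dissociation, the 10x version 3.1 chemistry and a NovaSeq instrument per the labels. The 3 libraries are labelled E14, E16 and E18 for the embryonic day, carry no further genotype or treatment, and there is 1 library per label. How many embryos each pools is not given in the sources used here. The labels' protocol text also covers an expansion culture, multiplexing oligonucleotides and an antibody sort of human cells. A sort of human cells would not apply to rat cells. It is not known which of these steps the 3 libraries went through.

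In the embryonic cortex, radial glia line the ventricle and produce neurons directly or through intermediate progenitors. Before areas are visible, these progenitors hold graded amounts of transcription factors. Pax6 and Sp8 are known to be high towards the front or the side, and Emx2, Nr2f1, Dmrt3 and Dmrta2 towards the back or the midline. Fibroblast growth factors (FGFs) from the front end of the forebrain, and Wnt and bone morphogenetic proteins from the hem at the midline, position these gradients. Dissociated cells carry no record of where in the sheet they sat, so a gradient can only be read here as genes that are found together or apart in the same cells.

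The deposited tables held 7100, 6707 and 6937 cell barcodes in the libraries labelled E14, E16 and E18, with 62740631, 80974234 and 73727823 UMIs. Cells with at least 1000 genes and at most 10% mitochondrial UMIs were kept after removal of predicted doublets, which left 4286, 4977 and 5431 cells with medians of 11199.5, 12274 and 10476 UMIs. In all, 42 barcodes were found in 2 libraries, 22 of them among kept cells. Classes were rebuilt from clusters and fixed markers, and radial glia were 409, 3032 and 1799 cells. Radial glia of the library labelled E16 came mainly from clusters 0, 1 and 12, and those of the other libraries mainly from clusters 4, 9 and 14. Genes known to mark early and late radial glia did not follow the order of the labels. Hmga2, an early gene, stood at 11.7, 225 and 21.4 CPM (UMIs per 1000000 UMIs of the class) in E14, E16 and E18. Aldoc, a late gene, stood at 727, 16.98 and 241 CPM. The library labelled E16 therefore had the highest early and the lowest late level of these genes. Each value below is for the library so labelled, and no order in developmental time is read from it. With 1 library per label no comparison between libraries has a replicate check and no test was made. Poisson intervals on CPM and Clopper-Pearson intervals on shares are exact, at 95%, and cover counting error only.

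Promoters were matched by symbol in RefSeq for the GRCr8 assembly, and 7 of the 9 genes had an entry. Emx2 and Nr2f2 are named only. The 4 shown belong to genes whose levels over the cell classes ran most alike (Emx1 with Lhx2, and Dmrt3 and Dmrta2, each with Emx2), with values given further on. Each is the 250 bases before the gene's start on the plus strand, 5′ to 3′, with matches of CCAAT or GGGCGG on either strand (ATTGG and CCGCCC on the other) in capitals.
Emx1, chr4:119282442-119282691 (+): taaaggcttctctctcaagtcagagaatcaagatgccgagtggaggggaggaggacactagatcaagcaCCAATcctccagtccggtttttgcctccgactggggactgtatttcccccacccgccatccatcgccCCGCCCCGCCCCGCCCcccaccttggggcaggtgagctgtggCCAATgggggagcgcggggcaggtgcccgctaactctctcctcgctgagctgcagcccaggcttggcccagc
Lhx2, chr3:42535494-42535743 (+): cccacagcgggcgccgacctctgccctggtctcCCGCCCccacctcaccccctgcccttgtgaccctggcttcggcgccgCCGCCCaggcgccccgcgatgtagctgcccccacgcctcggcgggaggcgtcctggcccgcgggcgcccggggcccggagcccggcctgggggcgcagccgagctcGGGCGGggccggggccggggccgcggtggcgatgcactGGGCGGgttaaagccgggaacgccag
Dmrt3, chr1:232674809-232675058 (+): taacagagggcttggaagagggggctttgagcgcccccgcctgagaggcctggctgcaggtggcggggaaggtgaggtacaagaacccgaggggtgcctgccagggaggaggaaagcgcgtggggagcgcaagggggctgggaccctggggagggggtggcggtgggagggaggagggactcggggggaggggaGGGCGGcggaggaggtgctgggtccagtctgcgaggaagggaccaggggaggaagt
Dmrta2, chr5:130034223-130034472 (+): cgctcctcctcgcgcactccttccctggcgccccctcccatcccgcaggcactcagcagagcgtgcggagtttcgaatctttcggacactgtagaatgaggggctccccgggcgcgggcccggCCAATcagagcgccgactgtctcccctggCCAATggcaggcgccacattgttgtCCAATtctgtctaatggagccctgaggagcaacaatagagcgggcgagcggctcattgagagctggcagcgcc
The CCAAT letters occurred 2 times in the Emx1 window, 3 times in that of Dmrta2 and 1 time in that of Sp8, and were not in the windows of Pax6, Lhx2, Nr2f1 and Dmrt3. Among 33469 rat promoters of the same length, 34.0% held them. The GGGCGG letters were found 4 times in the Lhx2 window, 3 times in that of Emx1 and 1 time each in those of Nr2f1, Sp8 and Dmrt3, against 30.5% of all promoters. TAATTA, the core of many homeodomain sites, was in 0 of the 7 windows (4.86% of all promoters), and AGGTCA, a nuclear receptor half-site, was in that of Sp8 alone among the 7 (14.1%). The windows of Lhx2, Dmrt3 and Nr2f1 had 80.8%, 70.4% and 69.2% G and C, and that of Pax6 had 42.0%, around a median of 51.2% over all promoters. These matches describe letters and say nothing of binding.

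Emx1 and Emx2 are homeobox factors of the dorsal telencephalon. Emx1 is widely used as a mark of the pallial lineage, and Emx2 is known to promote caudal and medial area identity. In radial glia, Emx1 stood at 80.5 CPM (73.5 to 88.1) in E14, 158 (155 to 162) in E16 and 139 (134 to 144) in E18. The E14 library was below both others, and none of the 3 intervals met. Emx2 had the same order, with 92.9 CPM (85.3 to 101) in E14, 188 (184 to 192) in E16 and 142 (137 to 146) in E18. On the log2(CPM + 1) scale, Emx2 was 1.01 higher in E16 than in E14 and Emx1 0.97 higher.

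Lhx2, a LIM homeobox factor needed for cells to take cortical rather than hem identity, differed less between libraries. Its radial glia level was 563 CPM (544 to 582) in E14, 700 (692 to 707) in E16 and 777 (766 to 788) in E18, a range of 0.46 on the log2 scale. Pax6, a paired-box factor of cortical progenitors known to promote rostral and lateral identity, ran the other way from Emx2. It stood at 309 CPM (296 to 324) in E14, 185 (181 to 189) in E16 and 265 (258 to 271) in E18. Pax6 was thus lowest, and Emx2 highest, in the library labelled E16. The log2 difference of Pax6 between E16 and E14 was -0.74, and that between E18 and E16 was 0.52. With a stricter filter of 2000 genes and 5% mitochondrial UMIs these were -0.21 and 0.07. That run kept 3554 cells of E16 but named only 573 of them radial glia, where the main run had 3032. Clusters with 520, 432, 429 and 421 cells of E16 were left unnamed in it. The size of the Pax6 difference thus rests on the filter and on the naming of classes, which cannot be told apart here.

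Dmrt3 and Dmrta2 are doublesex-related factors known to be high in the caudomedial cortex and the hem. Dmrt3 stood at 14.9 CPM (11.9 to 18.3) in E14, 35.3 (33.6 to 37.0) in E16 and 20.1 (18.3 to 21.9) in E18. The E16 value lay 1.19 above E14 on the log2 scale, the widest gap of the 9 genes in this comparison. Dmrta2 had nearly level values of 156 (146 to 166), 135 (132 to 138) and 135 (131 to 140) CPM.

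Nr2f1 and Nr2f2 (COUP-TFI and COUP-TFII) are orphan nuclear receptors. Nr2f1 is known to form a caudolateral-high gradient and to repress rostral identity, and Nr2f2 is better known from the caudal ganglionic eminence and the hippocampal region. In radial glia Nr2f1 stood at 239 CPM (227 to 252) in E14, 201 (197 to 205) in E16 and 204 (198 to 209) in E18, and the intervals of E16 and E18 overlapped. Its log2 difference between E16 and E14 was -0.25, and 0.08 with the stricter filter. That run left 130 radial glia in E14 and 573 in E16, where other large clusters went unnamed. Nr2f2 stood at 17.2 (14.05 to 20.9), 24.5 (23.1 to 25.9) and 12.6 (11.2 to 14.1) CPM. Sp8, a zinc-finger factor induced by FGF8 at the rostral end, was close to absent: 2, 40 and 12 UMIs were counted in all radial glia of E14, E16 and E18, or 0.334, 0.855 and 0.474 CPM.

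**Figure D1:**
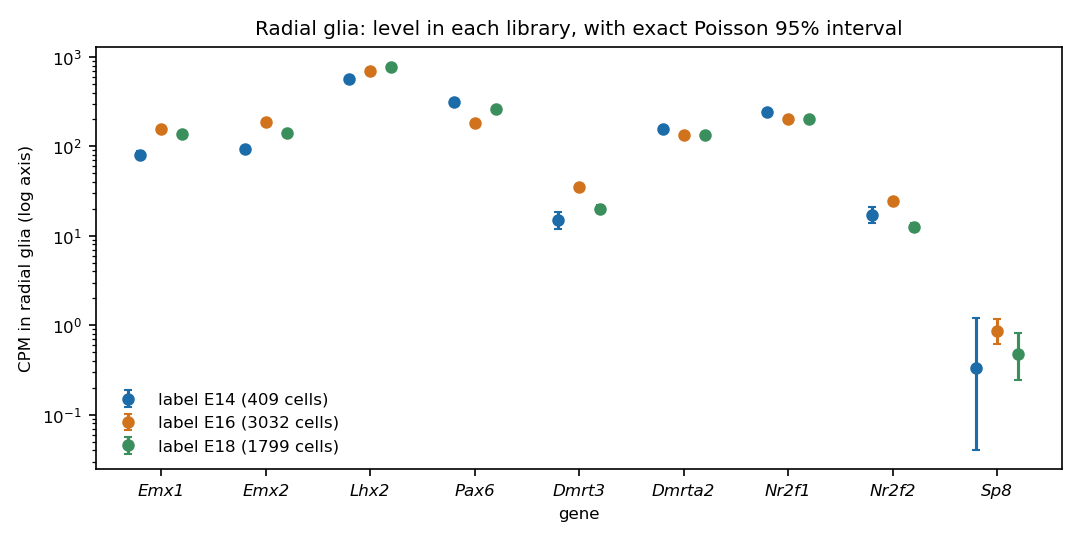
Level of each of the 9 genes (x axis) in radial glia, in CPM on a log axis, for the libraries labelled E14, E16 and E18; points are the class sums and bars the exact Poisson 95% intervals. Emx1, Emx2 and Dmrt3 are highest and Pax6 lowest in E16, where Dmrt3 reaches 35.3 CPM and Pax6 185 CPM.

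A gene was counted as apart between libraries when it was at least 2-fold different on the log2(CPM + 1) scale. The background is the share of all genes past that fold, over genes with at least 5 CPM on average of both sides, a level that 8 of the 9 genes reached and Sp8 did not. Between E16 and E14, 2 of the 8 were past it, Dmrt3 and Emx2, both higher in E16, while 9.61% of the 9900 genes were past it in either direction (2.4% higher and 7.2% lower). Emx1, at a fold of 1.95, lay just under it, and passed it under the stricter cell filter given above (log2 1.12), under median-ratio scaling (1.04) and with clusters made separately per library (1.01). It fell to 0.30 when all Sox2-positive cells were taken in place of radial glia. The call of Emx2 was lost, at log2 0.9955, at 2 times the doublet rate. With 10 CPM added in place of 1 the count was 0. Between E18 and E14 the count was 0 of 8 against 4.28% of all genes, and between E18 and E16 it was 0 of 8 against 2.67%. These 8 genes had median log2 differences of 0.40, 0.10 and -0.09 in the 3 comparisons, where all genes had -0.12, -0.05 and 0.07. Each library enters 2 of these comparisons.

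The share of radial glia with a UMI was read at 5000 UMIs per cell, to which each cell was thinned, and is given with the unthinned share. Emx1 was found in 29.7%, 51.4% and 47.4% of cells in E14, E16 and E18 (56.5%, 81.2% and 75.4% unthinned), and Pax6 in 73.5%, 56.3% and 68.3% (91.2%, 82.5% and 88.7%). The shares kept the order that the CPM gave, with Emx1 scarcest in E14 and Pax6 scarcest in E16. For Emx2 the shares were 34.8%, 53.4% and 45.0% (61.1%, 78.8% and 72.0%), and for Dmrt3 8.56%, 14.5% and 8.74% (17.4%, 35.98% and 22.5%). Lhx2 was in 91.2%, 91.1% and 95.8% of cells (96.8%, 97.4% and 98.2%), and Dmrta2 in 52.7%, 43.3% and 42.5% (76.0%, 73.2% and 70.0%). Nr2f1 was in 60.4%, 47.6% and 51.8% (78.7%, 65.6% and 69.0%), and Nr2f2 in 7.75%, 6.95% and 4.22% (12.2%, 12.6% and 9.39%). Lhx2 was thus in nearly every radial glial cell that could be read, and Nr2f2 in few. Erythroid cells, which should lack these genes, served as the background (134 cells, 124 of them of E16, with a median depth of 32327 UMIs). The cluster named for microglia was not used, because it was led also by Cldn5, an endothelial gene. At 5000 UMIs the erythroid cells had a UMI of Emx1 in 2.24% of cells, Lhx2 in 5.22%, Nr2f1 in 1.49%, Dmrt3 in 1.49% and Dmrta2 in 2.24% (5.22%, 13.4%, 8.21%, 1.49% and 4.48% unthinned). Emx2 and Pax6 were in 0 of 134, which allows up to 2.72% (4.48% and 5.22% unthinned). The radial glia, with median depths of 13153.5, 13824 and 12787.5 UMIs for those with Sox2, were above this in each library for these 7 genes, with intervals that did not meet. Nr2f2 was in 0.746% of erythroid cells (0.0189% to 4.09%, and 2.24% unthinned). Its radial glia shares were above that in each library, although the interval of E18 (3.32% to 5.29%) met that of the background. For Sp8 the radial glia shares of 0.267%, 0.481% and 0.352% (0.489%, 1.29% and 0.611%) were below the upper limit of 2.72% that 0 of 134 erythroid cells allow.

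Along the path from radial glia to neurons the genes differed in where they were highest. Intermediate progenitors (428, 416 and 1066 cells, clusters 6, 10 and 15 in every library) had the highest Emx1 of all classes, at 201 CPM in E14, 257 in E16 and 251 in E18. The intervals of E16 and E18 overlapped, and so did that of E14 with newborn neurons of E14 at 196 CPM. Maturing neurons had 68.2 and 93.3 CPM in E14 and E18. Emx2 was instead lower at each step, at 69.6, 92.7 and 79.2 CPM in intermediate progenitors, 33.8 and 30.6 CPM in newborn neurons of E14 and E18, and 6.37 and 14.3 CPM in maturing neurons. Newborn neurons came from clusters 3 and 16 in E14 and 5 and 7 in E18, and maturing neurons from 2, 8 and 18 in E14 and 13 and 18 in E18. In E16 neither class reached the 30 cells needed (3 newborn neurons).

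Pax6 was lower along the same path too, with 259, 104 and 177 CPM in intermediate progenitors, 50.5 and 47.3 CPM in newborn neurons and 2.87 and 4.29 CPM in maturing neurons, where erythroid cells of E16 had 2.20 CPM. Dmrta2 stood in intermediate progenitors (143, 151 and 145 CPM) near its radial glia level, and at 35.3 and 33.7 CPM in newborn and 4.84 and 3.92 CPM in maturing neurons. Lhx2 was still at 470 and 390 CPM in newborn neurons and at 144 and 139 CPM in maturing ones. Nr2f1 was at 201, 173 and 164 CPM in intermediate progenitors, 237 and 176 CPM in newborn neurons and 107 and 77.4 CPM in maturing neurons, and was thus retained in each step. Nr2f2 was higher in newborn neurons (61.3 and 37.4 CPM) than in the radial glia of the same libraries, with intervals that did not meet.

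The 2-fold count was repeated in these classes, over the genes that reached 5 CPM (all but Sp8, and 5 of the 9 in maturing neurons). In intermediate progenitors, E16 against E14 had 3 of 8 genes past it (Dmrt3 by 1.36 and Nr2f2 by 1.08 higher, Pax6 by -1.31 lower, log2), where 10.8% of all genes were. E18 against E14 had 0 of 8 (3.16% of all genes), and E18 against E16 had 1 of 8, Nr2f2, at -1.50 (3.44%). In newborn neurons, E18 against E14 had 1 of 8, Dmrt3 (4.55 to 10.997 CPM, log2 1.11), where 3.38% of all genes passed. In maturing neurons it had 1 of 5, Emx2 (log2 1.06), where 4.35% did. Dmrt3 was under 5 CPM there, at 1.47 CPM in E14 and 4.17 in E18, and its neuron levels are low in all cases.

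**Figure D2:**
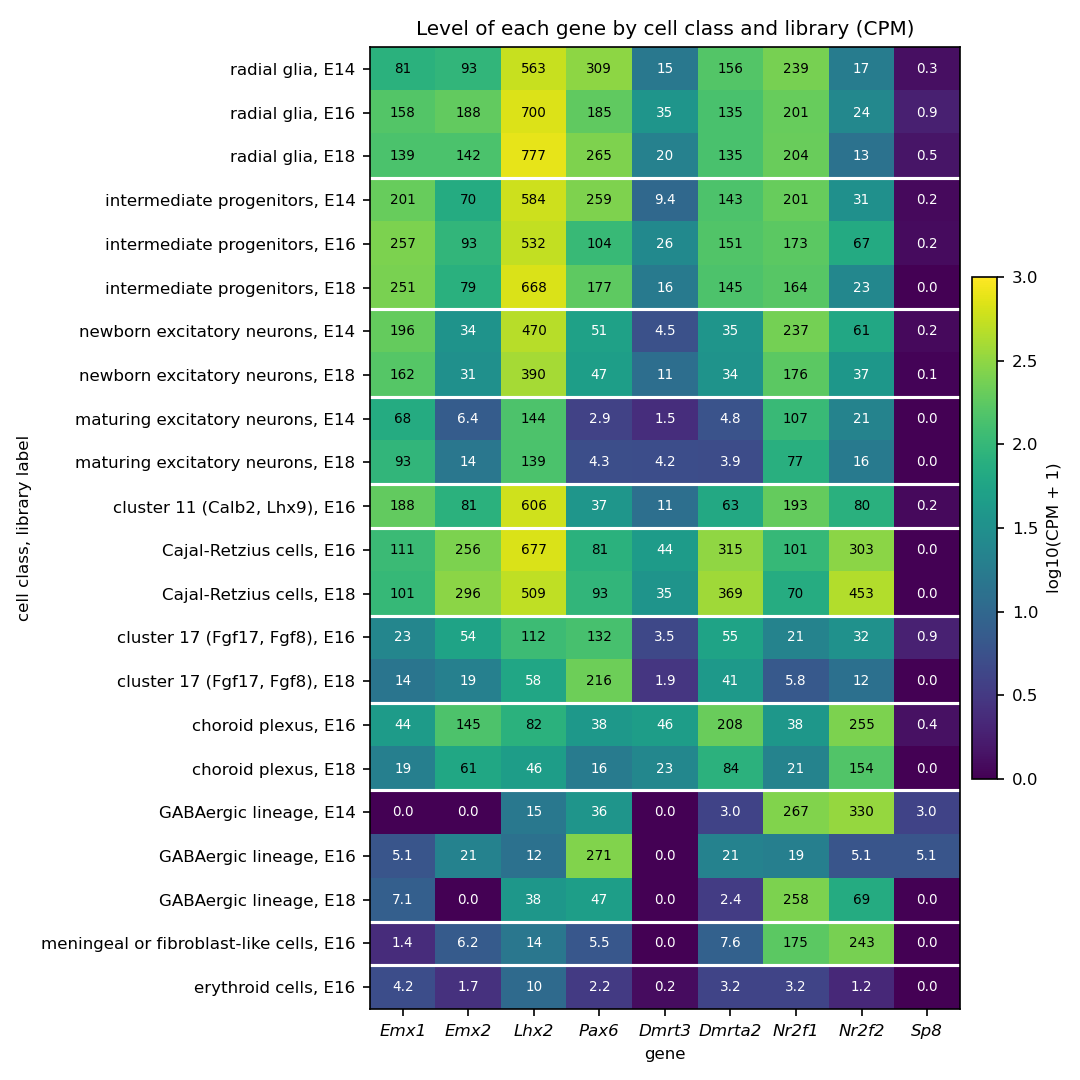
Level of each gene (columns) in each cell class and library with at least 30 cells (rows), printed in CPM and coloured by log10(CPM + 1). Emx1 is highest in intermediate progenitors (up to 257 CPM), Emx2, Dmrta2 and Nr2f2 in Cajal-Retzius cells of E18 (296, 369 and 453 CPM).

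Outside the excitatory lineage, Cajal-Retzius cells (Reln-producing neurons of the outermost layer, known to arise largely at the hem and other edges of the cortex, 130 cells in E16 and 67 in E18) had the highest Emx2, at 256 and 296 CPM, and the highest Dmrta2, at 315 and 369 CPM. For each gene the intervals of both libraries overlapped, and both lay above every other class. Nr2f2 was at 303 and 453 CPM there, more than 10-fold its radial glia level in the same libraries. Dmrt3 was at 43.9 and 34.6 CPM, and Lhx2 at 677 and 509 CPM. Choroid plexus epithelium (151 and 53 cells), which arises next to the hem, also held Dmrta2 (208 and 84.2 CPM), Dmrt3 (46.0 and 23.2 CPM) and Nr2f2 (255 and 154 CPM), with Lhx2 at 81.5 and 46.4 CPM. Among classes of E16, Dmrt3 was highest in choroid plexus, although its interval met that of Cajal-Retzius cells. Emx1 stood at 43.6 CPM there, below radial glia.

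In the GABAergic lineage (55, 73 and 72 cells of cluster 21), Nr2f1 was at 267, 18.9 and 258 CPM and Nr2f2 at 330, 5.15 and 68.7 CPM in E14, E16 and E18, while Pax6 was at 36.05, 271 and 47.4 CPM. Cells of this cluster labelled E16 thus had little of either nuclear receptor and the most Pax6 of the 3. At Leiden resolution 2 the GABAergic cells formed a cluster led by Sst and Maf (55, 3 and 71 cells) and another with Dlx5, Pnoc and Isl1 (0, 70 and 1 cells). The library and the kind of GABAergic cell cannot be told apart here. Emx1, Emx2 and Dmrt3 were at 0 UMIs there in E14, and the intervals allow up to 11.1 CPM. Cluster 17, left unnamed, held 296 cells in E16 and 36 in E18 and was led by Fgf17, Fgf8, Zic4 and Otx2. It held Pax6 at 132 and 216 CPM with Nr2f1 at 20.7 and 5.83 CPM, and Emx1 at 22.7 and 13.6 CPM. Cluster 11, also unnamed and almost wholly from E16 (606 cells), was led by Calb1, Calb2, Lhx9 and Ebf1. Emx1 stood at 188 CPM, Lhx2 at 606, Nr2f1 at 193 and Nr2f2 at 79.7 CPM there, close to the newborn neurons of the other libraries for Emx1. Over these classes Sp8 gave 7, 49 and 13 UMIs in all kept cells of the 3 libraries. Cluster 17 held 1, 3 and 0 of them, and the GABAergic lineage 1, 3 and 0.

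The classes differ much in number between the libraries, and so did the share of a gene's UMIs that came from radial glia. Radial glia held 8.67% of Emx1 UMIs in E14, 74.0% in E16 and 35.9% in E18. For Pax6 the shares were 49.0%, 84.9% and 68.1%, with radial glia the largest source in each library, and for Nr2f2 5.60%, 32.2% and 15.2%. A sum over a whole library would therefore compare different mixtures of classes, and sums over all cells are not used further.

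Genes whose level over the 22 class and library sums was most like that of each of the 9 were found among 6134 genes, by Pearson's r of log2(CPM + 10). These r are descriptions, since the sums share libraries and lineage. Emx1 and Lhx2 were each other's nearest gene (r = 0.9499), followed by Nckap5 (0.946 with Emx1 and 0.892 with Lhx2). Emx2 was nearest to Dach1 (0.969) and Dmrta2 (0.965), Dmrta2 to Emx2 and Dach1 (0.95), and Dmrt3 to Emx2 (0.916), Dach1 (0.914) and Myb (0.899). Emx1, Lhx2, Emx2, Dmrta2 and Dmrt3 each had another of the 9 as nearest or next nearest. How often this holds for other genes was not measured, so no count is read from it. Pax6 was nearest to Zfp219 (0.891), Znf660 (0.854) and Scrn1 (0.846). Nr2f1 was nearest to the uncharacterised LOC102549789 (0.8952) and Tcf4 (0.856). Nr2f2 was nearest to LOC102553329 (0.943), a long noncoding RNA model that overlaps Nr2f2 in RefSeq, so reads of the pair may not be fully separable, and then to Sema6a (0.751) and Tmem131 (0.750). For Sp8 the nearest were Pnoc (0.933), Slc10a4 (0.889) and Dlx6 (0.886), which rest on its few UMIs. The third genes were Pla2g12a for Emx1 (0.865), Shmt2 for Lhx2 (0.87) and Pagr1 for Emx2 (0.878) and Dmrta2 (0.901).

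Co-detection was read in Sox2-positive cells, of which there were 1003, 3702 and 2827, with 958, 3601 and 2739 left at 5000 UMIs and 45, 101 and 88 too shallow. Radial glia made up 40.1%, 78.7% and 62.3% of the Sox2-positive cells and intermediate progenitors 33.3%, 6.65% and 26.0%, so each pair is given also within Sox2-positive radial glia (373, 2833 and 1697 cells). A Sox2-positive cell held a median of 3, 3 and 4 of the 9 genes at this depth. Among the 28 pairs of the 8 genes of at least 5 CPM (all but Sp8), 12, 22 and 12 were found together more often than in the cells without the partner, with an interval of the difference above 0, and 3, 3 and 2 less often. The background is every pair of 1 of these genes with another gene of that level, of which 7.81%, 10% and 8.53% were more often together and 7%, 5.99% and 7.1% less often. Within radial glia the counts were 2, 14 and 4 more often (1.83%, 5.94% and 3.66% of all such pairs) and 0, 1 and 1 less often (1.67%, 3.4% and 2.53%). Intervals are narrower for genes of higher level, so the 15 pairs of the 6 genes of at least 50 CPM (without Nr2f2 and Dmrt3) were also set against genes of that level. Of these 8, 14 and 9 were more often together (13.8%, 18.1% and 16.5% of all such pairs) and 0 less often in each library (9.06%, 5.55% and 7.48%). Within radial glia 0, 6 and 2 of the 15 were more often together (2.28%, 8.63% and 5.58%) and 0, 1 and 1 less often (2.02%, 4.8% and 3.46%), so E14 and E18 leave few pairs to read there. The pairs share genes and cells. The number of cells differs between the libraries, and with it the width of the intervals.

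Pax6 and Emx2, known for gradients that face each other, were not found apart in the same cells. Pax6 was in 71.1% of Sox2-positive cells with Emx2 and 52.3% without in E14, a difference of 18.8 points (11.6 to 25.5). In E16 it was in 52.8% and 48.6% (4.22 points, 0.914 to 7.51), and in E18 in 65.0% and 56.8% (8.21 points, 4.42 to 11.96). Cells with Emx2 thus had Pax6 more often in each library. Within radial glia the differences shrank to 5.32 (-4.60 to 14.6), -0.472 (-4.18 to 3.24) and 2.23 points (-2.30 to 6.72), and the 3 intervals hold 0. The differences over all Sox2-positive cells moved with the depth. At 2000 UMIs per cell the E14 difference was 5.21 points, with an interval that held 0, and without thinning it was 31.2. The E16 difference was -0.743 points at 2000 UMIs and -1.85 in cells without Top2a or Mki67, genes of cycling cells, so its sign rests on these choices. In E16 and E18 the lower bounds of -4.18 and -2.30 points apply to finding a Pax6 UMI at this depth, as far as counting error goes. Radial glia had means of 0.874 and 0.645 Emx2 UMIs there, so cells without one may still hold its RNA. The bounds thus do not limit an opposition of the levels themselves.

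For Nr2f1 against Sp8 the UMIs of Sp8 were too few for a reading. At 5000 UMIs 2, 16 and 6 Sox2-positive cells had an Sp8 UMI, and the share with Nr2f1 minus that without was -0.463 (-1.66 to 0.346), -0.326 (-0.799 to 0.165) and 0.0171 points (-0.426 to 0.485). Without thinning the difference was -0.849 points in E16 and -0.549 in E18, with intervals below 0. Cells that differ in total UMIs are not made equal in that form.

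Nr2f1 and Nr2f2 were the pair found together more often in radial glia of all 3 libraries. Nr2f2 was in 12%, 12.3% and 6.61% of radial glia with Nr2f1 and in 1.35%, 1.89% and 1.71% of those without. The differences were 10.6 points (5.41 to 15.8) in E14, 10.4 (8.54 to 12.4) in E16 and 4.90 (2.97 to 6.90) in E18. Over the 9 pairs more often together in Sox2-positive cells of all 3 libraries, 8 others lost this in at least 1 library within radial glia: Emx1 and Emx2 each with Lhx2 and Dmrta2, Emx2 with Pax6, and Lhx2 with Pax6, Dmrt3 and Dmrta2. Nr2f2 was found less often with Lhx2 than without it in Sox2-positive cells, with differences of -11.8, -8.50 and -9.94 points. Within radial glia the sign turned in E16 (3.73 points, 0.553 to 5.90), and the intervals of E14 and E18 held 0. Nr2f2 was also found less often with Pax6, with differences of -4.78, -4.38 and -4.80 points, and in radial glia these 3 intervals held 0. The pairs less often together in radial glia were Pax6 with Lhx2 in E16 (-2.44 points, -4.58 to -0.268) and Emx2 with Nr2f1 in E18 (-5.43 points, -10.3 to -0.571). Dmrta2 was found more often in radial glia with Dmrt3 than in those without, by 27.7 points (8.79 to 41.4) in E14, 6.58 (1.28 to 11.9) in E16 and 5.21 (-3.42 to 13.9) in E18.

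**Figure D3:**
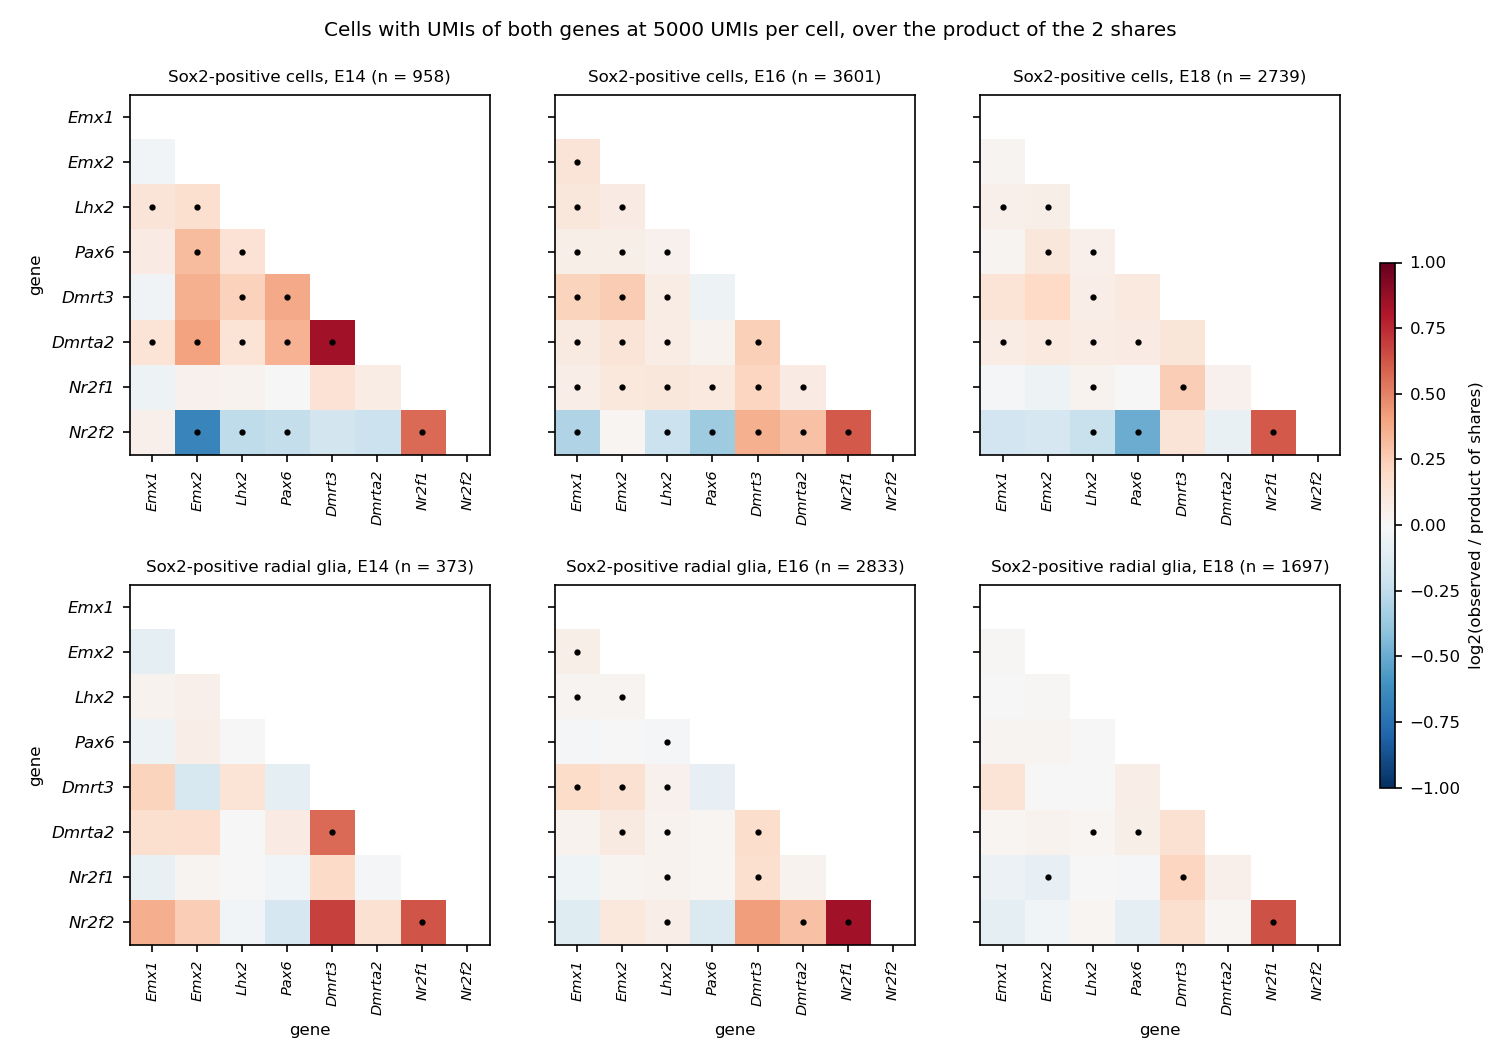
Log2 of the number of cells with UMIs of both genes over the product of their shares, at 5000 UMIs per cell, for Sox2-positive cells (top) and Sox2-positive radial glia (bottom) of each library; a dot marks a difference in share whose 95% interval excludes 0, and Sp8 is left out for its few UMIs. Nr2f1 with Nr2f2 is dotted in all 6 panels, with 1.54, 1.79 and 1.56 times the product in radial glia of E14, E16 and E18.

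Sox2-positive radial glia were then split by whether they had an Nr2f1 UMI at 5000 UMIs, which gave 225, 1354 and 878 cells with and 148, 1479 and 819 cells without. In E16 and E18, genes of FGF signalling were lower in the cells with Nr2f1. Of a list of 12 such genes, 11 were in the files and 6 passed 5 CPM on average over radial glia of the 3 libraries: Etv1, Etv4 and Etv5, transcription factors induced by FGF, and Dusp6, Spry2 and Il17rd, feedback inhibitors of the pathway. Their summed level was 208 CPM (182 to 236) with Nr2f1 and 291 (253 to 332) without in E14, 29.7 (25.7 to 34.1) and 145 (136 to 153) in E16, and 72.7 (64.9 to 81.1) and 139 (128 to 151) in E18. The intervals did not meet in any library, and the gap was widest in E16. These 6 genes respond to FGF and are not read as rostral position. Fgf8 and Fgf17 had 0 UMIs in kept cells of E14, where the sums were highest. At least 1.5-fold lower with Nr2f1 were 2, 6 and 6 of these 6 genes. The shares of all genes lower by that much, 8.39%, 1.43% and 1.69%, are over genes of at least 5 CPM in the split itself, and of the FGF genes that reach this 1 of 4, 5 of 5 and 4 of 4 were lower. The list's median log2 differences were -0.48, -2.15 and -0.89. At 2000 UMIs per cell the E18 count was 2 of 6.

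Dusp6 was at 2.36 CPM with and 29.7 without Nr2f1 in E16, and at 0.683 and 5.86 CPM in E18. Etv1 was at 17.6 and 62.5 CPM in E16, 43.3 and 79.1 in E18, and 103 and 146 in E14. Etv5 was at 3.40 and 25.7 CPM in E16, 18.7 and 33.9 in E18, and 54.2 and 82.4 in E14. The E14 library had the highest level of Etv1 and Etv5 on both sides of the split and the smallest ratio. Summed over the list and ordered by Nr2f1 UMIs (0, 1, 2, 3 or more), the levels were 291, 212, 221 and 186 CPM in E14, 145, 41.7, 19.7 and 17.8 in E16, and 139, 75.2, 72.9 and 67.6 in E18. Most of the difference thus lay between 0 and 1 UMI. The split was repeated within single clusters of radial glia, over the FGF genes of at least 5 CPM there. In E16 it left 4 of 4 genes 1.5-fold lower in cluster 0 (23.0 against 124 CPM summed over the 6 genes, with 2.88% of all genes lower), 5 of 5 in cluster 1 (24.7 against 121 CPM, 3.6%) and 5 of 5 in cluster 12 (48.9 against 204 CPM, 7.5%). In E18 the counts were 4 of 4 in cluster 4 (60.2 against 144 CPM, 5.43%), 0 of 4 in cluster 9 (102 against 141 CPM, 6.44%) and 2 of 4 in cluster 14 (69.4 against 144 CPM, 8.21%). In E14 they were 0 of 4 in cluster 4 (171 against 215 CPM with overlapping intervals, 13.6%) and 3 of 5 in cluster 9 (194 against 394 CPM, 18.5%). The sums were lower with Nr2f1 in each of these clusters, with intervals that met in cluster 4 of E14 and all but met in cluster 9 of E18 (85.8 to 121 against 121 to 164).

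Over all 5 lists of field, border, area and stage genes, 41 genes of at least 5 CPM in the split itself were compared in E14 and E16 and 40 in E18. With Nr2f1, 10, 7 and 8 of them were at least 1.5-fold higher, against 9.94%, 1.56% and 2.20% of all genes. Lower by that much were 1, 9 and 6 of them, against 8.39%, 1.43% and 1.69% of all genes. The E14 split has the fewest cells and the largest shares of all genes past the fold. Among the lowest in E16 and E18, beside Etv1 and Etv5, were Zic4 (4.28 against 39.4 CPM in E16 and 1.59 against 25.4 in E18), a zinc-finger factor, and Efna5 (6.65 against 31.5, and 3.87 against 10.5), an ephrin ligand of area-graded axon guidance. Among the highest were Tenm2, a synaptic adhesion protein (70.5 against 23.0 CPM in E16, 65.4 against 22.7 in E18, 36.4 against 18.9 in E14), and the ephrin receptor Epha3 (41.1 against 13.9, 52.4 against 24.4, and 48.9 against 23.0). Igfbp5, a growth factor binding protein, was at 25.7 against 9.20 CPM in E16 and 24.4 against 8.79 in E18, and Lmo3, a LIM-domain cofactor, at 49.8 against 28.0 CPM in E16 and 98.7 against 54.1 in E14. Tenm2 and Epha3 were among the 5 highest in each library. The remaining named genes were Nr4a2 in E16 (28.4 against 16.4 CPM), Pbx3 and Nrg1 in E18 (9.34 against 4.15, and 21.2 against 10.99) and Il17rd in E18 (3.64 against 7.81). In E14 they were Meis1 (15.1 against 4.05) and Hmga2 (13.3 against 6.76) on the high side and Efna5, Cdh8, Fezf2 and Lef1 on the low side, of which none of the 4 reached 1.5-fold.

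**Figure D4:**
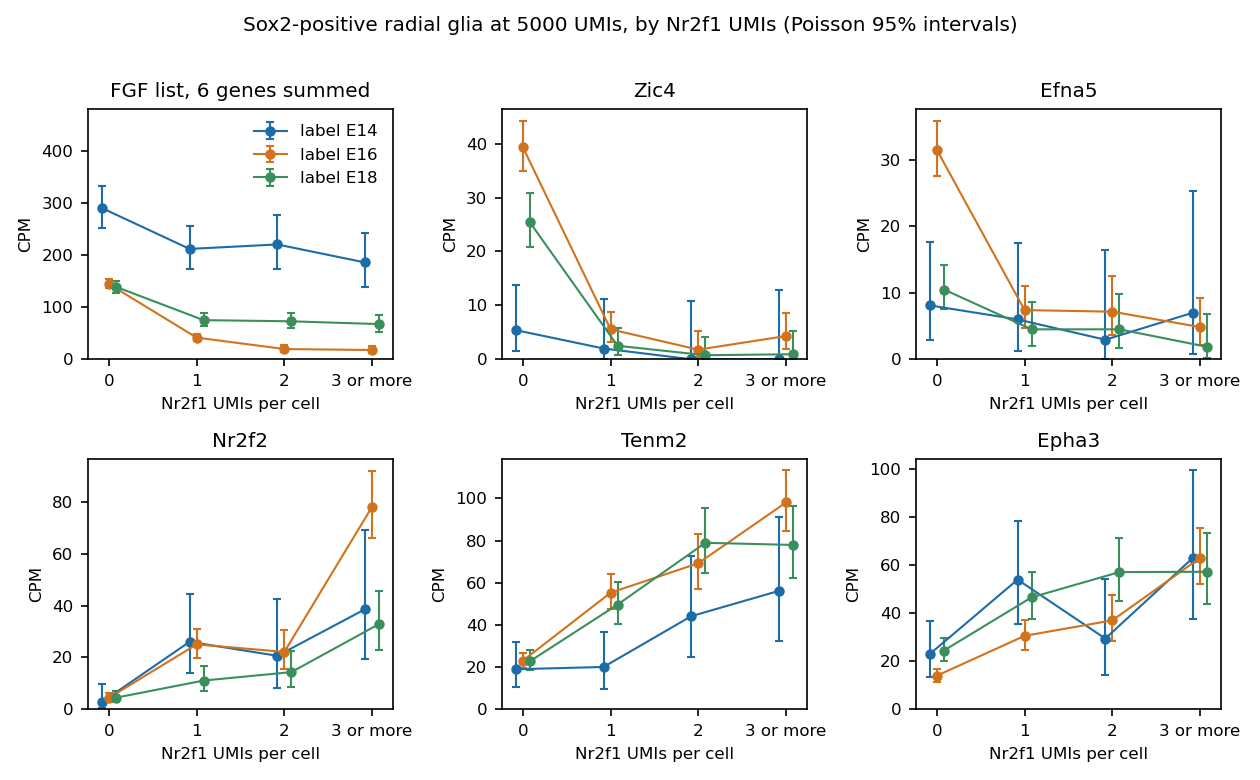
Level of the 6 FGF genes summed, Zic4, Efna5, Nr2f2, Tenm2 and Epha3 in CPM (y axis) in Sox2-positive radial glia grouped by their Nr2f1 UMIs at 5000 UMIs per cell (x axis), with exact Poisson 95% intervals, for each library. In E16 the FGF sum is 145 CPM at 0 Nr2f1 UMIs and 17.8 at 3 or more, while Tenm2 is 23.0 and 98.1 CPM.

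The same FGF genes were read in splits by the other genes, which share cells with the Nr2f1 split, with sums over the 6 genes and counts over those of at least 5 CPM in the split (4, 5 and 4 genes in E14, E16 and E18). With Nr2f2, 5 of 5 were 1.5-fold lower in E16 (15.4 against 95.1 CPM summed, 6.09% of all genes lower) and 3 of 4 in E18 (19.4 against 109 CPM, 14.7%), and E14 had fewer than 30 cells with Nr2f2. Over all 6 genes the counts were 6 and 5. With Dmrt3, 3 of 4, 5 of 5 and 2 of 4 were lower (5, 6 and 4 of the 6), where 23.2%, 2.09% and 8.07% of all genes were, and the sums were 200.0 against 245 CPM in E14, 47.3 against 96.9 in E16 and 60.8 against 109 in E18. Higher with Dmrt3 were 1, 0 and 0 of the 6 (14.8%, 1.36% and 4.31% of all genes). The E14 split by Dmrt3 has only 32 cells with the gene, and its sums have overlapping intervals. With Lhx2, 0 of 4, 4 of 5 and 2 of 4 were lower (1, 5 and 3 of the 6), where 15.2%, 3.36% and 8.14% of all genes were. Higher with Lhx2 were 1, 0 and 1 of the 6 (22.8%, 5.91% and 16.6% of all genes). The Lhx2 sums were 243 against 218 CPM in E14, 79.6 (74.8 to 84.6) against 190 (167 to 215) in E16 and 103 against 138 in E18, where the intervals met, with 33, 258 and 71 cells without the gene. With Pax6 the sums ran the other way, and the single genes less so. None of the FGF genes of at least 5 CPM was lower with it (9.63%, 0.574% and 1.04% of all genes), while over all 6 genes 2, 0 and 1 were lower, and 1, 2 and 1 were 1.5-fold higher. Of all genes of at least 5 CPM, 12.1%, 1.55% and 2.91% were higher with Pax6 by that much. The sums were 258 (232 to 287) against 192 CPM (155 to 235) in E14, 109 (102 to 116) against 64.6 (58.4 to 71.2) in E16 and 112 (104 to 121) against 89.1 (78.2 to 101) in E18. The FGF sum was thus higher with Pax6 in each library, with intervals that met in E14 alone.

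Emx2, Emx1 and Dmrta2 gave few or no FGF genes past the fold. With Emx2, 0 of the 4, 5 and 4 genes of at least 5 CPM were lower or higher. Of all genes 9.99%, 0.396% and 1.06% were lower and 8.07%, 1.2% and 1.61% higher. Over all 6 genes 0 were lower in each library and 2, 0 and 0 higher. The sums were 258 against 231, 83.7 against 96.6 and 104 against 105 CPM. With Dmrta2, 0 of those genes were lower in each library (7.62%, 0.271% and 1.05% of all genes), and 1, 0 and 0 of the 6, with sums of 262 against 217, 92.4 against 87.6 and 97.5 against 110 CPM. Higher with Dmrta2 were 1, 0 and 0 of the 6 (9.24%, 0.323% and 1.35% of all genes). With Emx1, 1, 0 and 0 were lower by either count (12.5%, 0.511% and 1.02%), and 1, 0 and 1 of the 6 were higher (8.01%, 0.292% and 0.878% of all genes). The Emx1 sums were 193 (158 to 233) against 261 (234 to 290.0) in E14, where the intervals did not meet, and 84.2 against 95.4 and 106 against 104 CPM in E16 and E18, where they did. The differences between these splits and that by Nr2f1 were not tested.

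Across libraries, 4 of the 6 FGF genes were at least 2-fold lower in radial glia of E16 than of E14 (Etv1 147 to 34.4 CPM, Spry2 34.8 to 4.85 CPM, Etv4 and Etv5) and 2 were higher (Dusp6 3.01 to 18.0 CPM, Il17rd 2.34 to 9.51 CPM). Of all genes 7.2% were lower and 2.4% higher by that much. The list's median log2 difference was -1.90, where all genes had -0.12. The 6 genes therefore differed in both directions between these libraries. Between E18 and E14, 0 were higher and 4 lower of the 4 that reached 5 CPM there (0.96% and 3.32% of all genes), and between E18 and E16, 0 and 1 of 5 (1.96% and 0.712%). Of 20 other field and regional transcription factors of at least 5 CPM in E16 or E14 on average, 2 were higher in E16 (Lef1, a mediator of Wnt signals, 44.5 to 271 CPM, and Zic4, 3.18 to 22.1 CPM) and 3 lower (Tfap2c, 108 to 34.3 CPM, Lmo3, 81.4 to 38.1 CPM, and Meis1). Among measured genes of the antihem and ventral border, Nrg1 was lower in E16 (54.6, 2.57 and 13.3 CPM in E14, E16 and E18), while Sfrp2, a Wnt inhibitor of the antihem, differed less (57.5, 41.7 and 50.5 CPM). Of 11 measured genes graded between areas in neurons, Efna5 was higher (5.51, 19.5 and 8.29 CPM) and the transcription factor Bhlhe22 lower (15.2, 2.69 and 9.04 CPM) in E16 than in E14. Fgf8 itself was at 0 (up to 0.616), 0.321 and 0.0789 CPM in radial glia.

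Radial glia with a UMI of the cycling genes Top2a or Mki67 had more Pax6 than the others in E16 (191 against 130 CPM) and E18 (275 against 217 CPM). In E14 the values were 317 and 286 CPM, with overlapping intervals. Emx2 was at 192 against 151 CPM in E16 and 146 against 120.0 in E18, and in E14 at 92.5 against 94.2, with overlapping intervals. In E16, Lhx2 (708 against 631 CPM), Nr2f1 (206 against 162), Dmrta2 (137 against 115) and Dmrt3 (36.1 against 28.7) were higher too. The intervals of Emx1 (158 against 159) and Nr2f2 (24.7 against 22.6) overlapped there. Radial glia with Top2a or Mki67 were 273 of 409 in E14, 2577 of 3032 in E16 and 1359 of 1799 in E18. They were counted without thinning, so that deeper cells are more often among them. The part of this in the differences between libraries was not tested.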

How the data were processed

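Per the file headers, the deposited matrices hold UMI counts per gene and barcode written by Cell Ranger 6.0.1 and are not normalized. The genome build was mRatBN7.2 per the submitters' processing notes, and the annotation and count settings are not given in the sources used here. The labels gave each library its group. The 9 genes and the gene lists were chosen with earlier results of these data known.

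Cells with at least 1000 genes and at most 10% UMIs of the 13 mitochondrial genes were kept. Scrublet scores removed predicted doublets at 0.8% per 1000 cells (158, 216 and 259 cells in E14, E16 and E18). Counts scaled to 10000 per cell, 2000 variable genes without the 9 genes and the lists, 30 principal components, 15 neighbours and Leiden resolution 1 gave 26 clusters. A cluster was named for the class with at least 3 markers raised 1.2-fold in at least 20% of its cells, unless its 10 leading genes of at least 50 CPM went against it, and 24 were named. Of 103 markers for 14 classes, 102 were found.

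UMIs were summed per class and library with at least 30 cells and divided by the class total (CPM). Differences are on log2(CPM + 1), for genes of at least 5 CPM on average, with a 2-fold threshold between libraries and 1.5-fold between cells split by a gene. For shares and splits, each cell was thinned to 5000 UMIs and shallower cells left out. For each of the 9 genes the 3 genes of highest correlation are named, from each list the 2 highest and 2 lowest, and in the splits the 5 highest and 5 lowest of all lists, as far as a comparison is described. A few genes that this rule would name are not reported here. The scripts were tested on simulated data. Alternatives were other cell filters, doublet rates, resolutions, scaling, added CPM, per-library clustering, thinning depths and Sox2 minimums. Used were Python 3.11.15, leidenalg 0.10.2, scanpy 1.11.5, pandas 2.3.3, igraph 0.11.9, numpy 2.4.6, matplotlib 3.10.9, scipy 1.17.1 and scikit-learn 1.9.0. Promoters are from RefSeq for GRCr8, another assembly than that of the counts, and their coordinates apply to it alone.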

Additional observations from a re-analysis of the deposited data

How the results depend on the processing

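Of the values that answer a comparison, 86 stayed within the spread allowed under an alternative, 18 moved and 3 turned. The spread is the interval of the main value, or 1.5-fold for a count. Only a value whose interval excluded 0 could turn. Of the single-gene log2 differences in radial glia 223 stayed within their spread and 47 moved. Most sign changes came with all Sox2-positive cells (5 of 27) and under the stricter filter (3 of 27). The count of genes at least 2-fold apart between E16 and E14 was 2, with 3 (Emx1 also) under the stricter filter, under median-ratio scaling and with clusters made separately per library, 1 (Dmrt3) at 2 times the doublet rate and 0 with 10 CPM added. Between E18 and E16 it was 0, with 1 under the stricter filter of 2000 genes and 5% mitochondrial UMIs (Dmrt3) and 1 (Nr2f2) with more doublets taken out. The Sp8 share with minus without Nr2f1 was -0.849 points in E16 and -0.549 in E18 without thinning. The Pax6 share with minus without Emx2 was 5.21 points in E14 and -0.743 in E16 at 2000 UMIs, and 31.2, 16.99 and 19.2 points in E14, E16 and E18 without thinning. In radial glia alone it was 5.32, -0.472 and 2.23 points, and in E16 cells without Top2a or Mki67 it was -1.85.

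Alternatives for the FGF genes lower with Nr2f1, counted over the 6 genes, were chosen after seeing the data. In E14 the count of 2 was 1 at 2000 UMIs, 1 under the stricter filter, 1 in cluster 4 and 4 in cluster 9, and in E18 the count of 6 was 2 at 2000 UMIs and 1 in cluster 9. For these results the cause was not tested. The E16 against E14 log2 difference of Emx1 ranged from 0.30, with all Sox2-positive cells, to 1.12, that of Emx2 from 0.94 to 1.30, that of Dmrt3 from 0.86 to 1.66 and that of Pax6 from -0.75 to -0.21, under the stricter filter. The stricter filter left 322 cells in E14. In E16 it gave 573 radial glia against 3032, with other large clusters unnamed, and under it Nr2f1 in E18 against E16 was -0.37. With all Sox2-positive cells Dmrta2 was 0.13 in E16 and 0.10 in E18 against E14, and Emx1 0.08 in E18 against E16. No paired analysis was possible because each label has 1 library and no result comes from a replicated test. Sp8 had the fewest UMIs of the 9 genes, with 2, 40 and 12 in radial glia, and the reason was not tested.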
